A study of Mus musculus with 2 samples.

Results

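T cell and natural killer (NK) cell genes were compared between IL-9 transgenic mice, titled Tg5, and wild-type mice, titled FVB, in RNA of the distal colon. The set held 40 genes chosen by symbol: the chains and coreceptors of the T cell receptor, the kinases and adaptors just beneath it, surface and costimulatory molecules, cytotoxic granule proteins, NK cell receptors and lineage transcription factors. Of these, 37 had at least 1 probe set annotated with that symbol alone (51 probe sets in all), out of 12393 genes so represented on the array. Lck and Tcf7 had no such probe set and were not analysed here. Klrb1c (NK1.1) was read only by a probe set shared with Klrb1b, at 0.689 in wild type against 1.28 in the transgenic pool, and was left out of the counts.

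Each genotype was a single pool of RNA from 4 mice, hybridised to a single Affymetrix expression array. The control is given as FVB in the sample labels and as TVB in the series design text. All mice were bred free of specific pathogens. The promoter driving the transgene, the age and sex of the mice and the time of collection are not given in the sources used here. With 1 pool per genotype the variation among mice is unknown, so no test was run, and every difference below is between these pools. In whole-tissue RNA, a change in the number of lymphocytes and a change in RNA per lymphocyte cannot be told apart.

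T cells recognise peptide on MHC molecules through a receptor whose variable chains carry no signalling domain of their own. The CD3 chains and the zeta chain (Cd247) signal for it, the coreceptors CD4 and CD8 bring the kinase Lck to it, and ZAP-70 and the adaptor LAT relay the signal. NK cells lack this receptor and are governed by a balance of activating and inhibitory receptors. Both kill by releasing perforin and granzymes from granules. In the gut, many T cells lie between epithelial cells as intraepithelial lymphocytes, which often carry CD8, CD160 and granzymes.

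Intensities are MAS5 values on a linear scale, and most T and NK cell genes gave low ones. A floor was set at 19.8, which 40% of probe set values across the arrays did not exceed: lower values were raised to it before the ratio of transgenic over wild type was taken. Where 1 pool lay under the floor, the ratio is a lower bound, written "at least". A gene is called measured if its brightest probe set exceeded the floor in at least 1 pool. Of the 37 genes, 15 were measured. Of these 15, 6 exceeded the floor in both pools, 9 exceeded it in the transgenic pool alone and 0 in the wild-type pool alone; over all 8346 measured genes, 3.28% exceeded it in the transgenic pool alone and 3.62% in the wild-type pool alone. The 9 genes were Cd3e, Cd3d, Cd3g, Cd2, Gzma, Gzmb, Prf1, Klrd1 and Lat, and passing through the transgenic pool alone fixes their direction.

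With this floor, 1 of the 15, Gzmb, was at least 2-fold higher and 0 were at least 2-fold lower, where 0.767% of all measured genes were higher and 0.611% lower. The median log2 ratio was 0.10 for the 15 genes and 0.04 for all measured genes. The median of the 15 is itself a bound, since it is the value of Lat. At a 1.5-fold threshold, 3 of 15 were higher (Gzmb, Gzma and Gimap4), against 4.09% of all genes, and 0 were lower, against 2.85%. A technical yardstick came from genes that more than 1 probe set read above the floor in each pool: log2 ratios of the same gene varied among its probe sets with a pooled SD of 0.28. It holds no spread between animals.

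**Figure D1:**
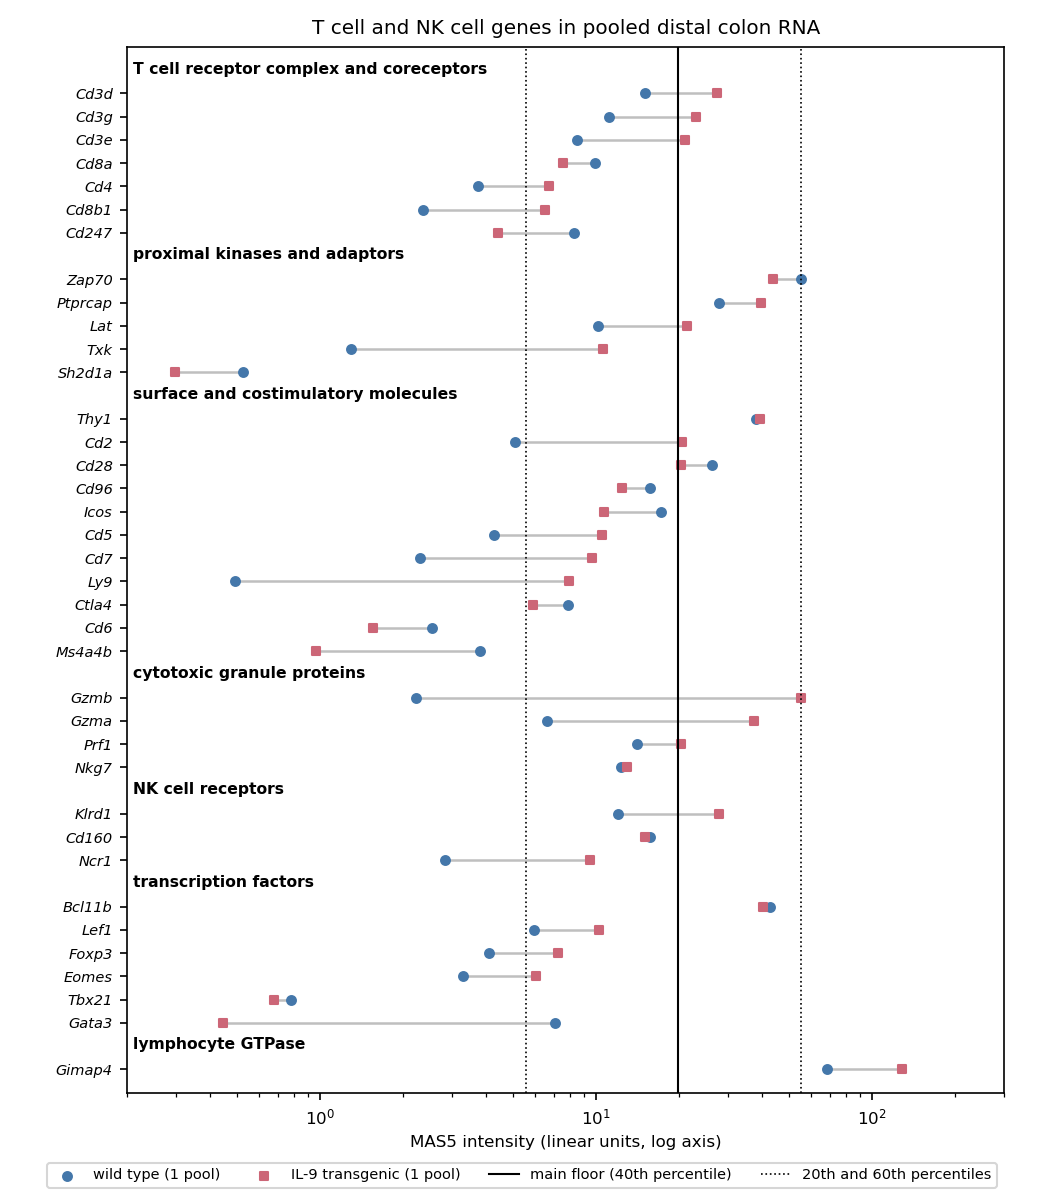
MAS5 intensity (linear units, log axis) of 37 T and NK cell genes in the wild-type pool (circles) and the IL-9 transgenic pool (squares), 1 pool each, by role; the solid line is the main floor of 19.8 and the dotted lines are the 20th and 60th percentiles, 5.58 and 55.1. The squares of 9 genes lie right of the solid line while their circles lie left of it, and no gene shows the opposite arrangement.

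The cytotoxic granule genes held the largest differences. Gzmb, which encodes the aspartate-cleaving protease granzyme B, had 2.22 in the wild-type pool and 55.2 in the transgenic pool, a ratio of at least 2.79-fold. Gzma, for the tryptase granzyme A, went from 6.62 to 37.1, at least 1.88-fold higher. Both granzyme genes were under the floor in wild type and above it in transgenic colon. Prf1, for the pore-forming protein perforin, barely crossed the floor with its brighter probe set, from 14.0 to 20.3, and its other probe set went from 7.96 to 6.06. Nkg7, for a granule membrane protein, was under the floor in both pools, at 12.3 and 12.9. The summed intensity of these 4 genes was 35.1 against 126 in the transgenic pool, and Gzmb and Gzma made up most of the difference.

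The upstream sequence of the 4 granule genes is shown because they are the group in which the largest ratios fell. The 250 bases before the annotated start are from RefSeq (GRCm38.p6), 5′ to 3′ on the gene's strand. Capitals mark matches on either strand to the Runx core TGTGGT, the AP-1 motif TGANTCA, the Ets motif GGAAGT and the Gata motif AGATAA. Gzmb lies at chr14:56262335-56262584, minus strand; Gzma at chr13:113100982-113101231, minus strand; Prf1 at chr10:61297586-61297835, plus strand; and Nkg7 at chr7:43436888-43437137, plus strand.
Gzmb: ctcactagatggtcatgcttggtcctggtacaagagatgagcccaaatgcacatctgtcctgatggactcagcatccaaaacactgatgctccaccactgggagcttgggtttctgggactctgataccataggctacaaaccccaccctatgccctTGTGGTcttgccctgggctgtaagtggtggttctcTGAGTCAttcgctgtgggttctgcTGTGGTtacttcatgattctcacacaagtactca
Gzma: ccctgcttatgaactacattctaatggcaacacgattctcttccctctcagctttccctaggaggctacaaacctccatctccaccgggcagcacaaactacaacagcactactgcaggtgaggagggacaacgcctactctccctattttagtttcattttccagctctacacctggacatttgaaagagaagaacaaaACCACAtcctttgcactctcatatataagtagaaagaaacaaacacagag
Prf1: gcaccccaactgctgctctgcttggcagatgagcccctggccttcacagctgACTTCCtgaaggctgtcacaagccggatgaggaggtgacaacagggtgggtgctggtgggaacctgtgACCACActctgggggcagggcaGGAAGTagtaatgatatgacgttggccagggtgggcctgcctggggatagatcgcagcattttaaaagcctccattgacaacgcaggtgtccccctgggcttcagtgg
Nkg7: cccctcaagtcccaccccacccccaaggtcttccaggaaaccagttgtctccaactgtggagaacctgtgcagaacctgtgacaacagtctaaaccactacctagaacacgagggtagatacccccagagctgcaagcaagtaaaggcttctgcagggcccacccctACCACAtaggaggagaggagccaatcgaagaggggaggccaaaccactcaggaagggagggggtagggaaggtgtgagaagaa

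Counting the last base before the start as -1, the Gzmb window held Runx matches beginning at -93 and -34 and an AP-1 match at -58. The Gzma window held a Runx match at -50, the Prf1 window one at -130 with Ets matches at -198 and -108, and the Nkg7 window one at -83. All 4 granule gene windows thus held the Runx core, which was found in 14.0% of 32851 windows of the same length. Counting these 4, the core was present in 10 of the 25 T and NK cell genes with a window. Of the 7 with a window that crossed the main floor in the transgenic pool alone, 3 held it, namely Gzmb, Gzma and Prf1. Ets matches were found in 12 of the 25 (19.7% of all windows), Gata matches in 3 (9.99%) and the AP-1 motif in 1, Gzmb (6.75%). These are matches of letters and do not show binding.

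In the RefSeq gene order of chromosome 14, Gzmb lies at the end of a run of granule protease genes. Next to it come Gzmc, Gzmf, Gzmn, Gzmg, Gzmd and Gzme, then the cathepsin G gene Ctsg and the mast cell protease genes. The 6 granzyme neighbours were under the floor in both pools, with Gzmc at 4.33 and 3.30 and Gzmn at 4.18 and 0.550. Further along, Mcpt4 went from 15.9 to 68.0, Mcpt2 from 14.6 to 1472 and Mcpt1 from 4.96 to 1297, at least 3.44-fold, 74.3-fold and 65.5-fold higher. Cma1 in the same run was 1.49-fold higher (29.2 to 43.6). Ctsg (0.717 and 10.5) and Mcpt8 (0.486 and 3.21) were under the floor in both pools. Atp12a, the neighbour of Gzmb on the other side and the gene of a colonic proton pump, had 927 and 858. Gzma lies on chromosome 13 beside Gzmk, which was under the floor in both pools at 1.65 and 1.48.

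Granzyme B is made by cytotoxic lymphocytes and has also been found in mast cells, and mast cell markers differed between the same pools. Of 10 measured mast cell markers 5 were at least 2-fold higher (Mcpt2, Mcpt1, Fcer1a, Cpa3 and Mcpt4) and 0 at least 2-fold lower, against 0.767% and 0.611% of all measured genes. All of the 5 except Cpa3 exceeded the floor in the transgenic pool alone, which fixes their direction. Tpsab1 (35.7 to 29.1) and Gata2 (36.9 to 32.5) had negative ratios. The summed intensity over the 13 on the array was 310 against 3426 in the transgenic pool, and Mcpt1 and Mcpt2 made up most of the latter. Ms4a2, Hdc and Gata1 were under the floor in both pools. The part of mast cells in the Gzmb value was not tested. Srgn, for the proteoglycan serglycin that packs granzymes and mast cell proteases alike, was 2.25-fold higher (210 to 473). Serpinb9, an inhibitor of granzyme B, had a log2 ratio of 0.48 (46.7 to 65.0).

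The CD3 genes, which define T cells, had low intensities that were all higher in the transgenic pool. Cd3d went from 15.0 to 27.3, at least 1.38-fold higher. Cd3g had 11.1 and 23.1, at least 1.16-fold, and Cd3e had 8.52 and 20.9, at least 1.06-fold. These 3 genes adjoin each other on chromosome 9, in the order Cd3g, Cd3d and Cd3e, and the wild-type pool was under the floor for each. The zeta chain gene Cd247 did not follow them: its 4 probe sets were under the floor in both pools, and the brightest went from 8.33 to 4.42. The other 3 probe sets of Cd247 had 5.59 and 6.77, 3.07 and 7.09, and 1.17 and 0.346, so they went both ways.

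The coreceptor genes were under the floor in both pools. Cd4 had 3.74 and, in the transgenic pool, 6.71. Cd8a, the chain shared by conventional and intraepithelial CD8 cells, had 9.90 and 7.54, and Cd8b1, the chain typical of conventional CD8 T cells, had 2.35 and 6.50. No division of the CD3 signal between CD4 and CD8 cells can be read from these values.

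The T cell receptor loci were read by 12 single-symbol probe sets, named by the annotation for variable segments. Among 6 probe sets of the alpha locus, 3 exceeded the floor and were higher in the transgenic pool, all annotated as Trav9d-3: 34.9 to 54.6, 26.3 to 37.8, and 19.0 to 34.8, with log2 ratios of 0.65, 0.52 and at least 0.81. For the beta locus, Trbv1 went from 19.6 to 36.5, at least 1.84-fold higher. For the gamma locus, the 2 probe sets above the floor, both annotated as Trgv4, were lower: 24.3 to 16.9 and 21.5 to 10.4. The sums over all probe sets of a locus were 93.4 and 134 for alpha, 20.6 and 39.3 for beta, and 64.4 and 40.8 for gamma. A further probe set shared by Trgv4 and Trgv2 went the other way, from 18.9 to 41.6, at least 2.10-fold higher. It exceeded the floor in the transgenic pool alone, which fixes its direction. Suffixes of several of these probe sets mark cross-binding to related transcripts, and with the main floor 0 of the 12 single-symbol probe sets reached 2-fold. The 2 Trgv4 probe sets exceeded the floor in the wild-type pool alone. Trbv1 and the Trav9d-3 probe set at 19.0 and 34.8 exceeded it in the transgenic pool alone. Their ratios are bounds and their directions are fixed, so they cannot show whether probe sets or loci agree. With the floor at the 20th percentile, 1 of 5 measured locus genes was at least 2-fold lower and 0 were higher, against 2.39% and 1.87% of all genes. The lower gene was Trav12n-1 of the alpha locus (11.7 to 5.39). It exceeded that lower floor in the wild-type pool alone, which fixes its direction.

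Of the kinases and adaptors, 3 of 5 were measured. Lat, the membrane scaffold that ZAP-70 phosphorylates, went from 10.2 to 21.3, at least 1.07-fold higher. Ptprcap, which binds the phosphatase CD45, exceeded the floor in both pools at 27.8 and 39.5, a log2 ratio of 0.51. Zap70 gave opposite readings: its brighter probe set had 55.3 and 43.6 (log2 ratio -0.34), and its other probe set had 1.36 and 10.1, under the floor in both. Txk, a Tec-family kinase, had 1.29 and 10.6, and Sh2d1a, for the adaptor SAP, had 0.524 and 0.296. Ptprcap alone in this group had both pools above the floor and a positive ratio.

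Of the 11 surface and costimulatory molecules, 3 were measured, and Thy1 and Cd28 exceeded the floor in both pools. Thy1, a glycoprotein of T cells that neurons and fibroblasts also carry, had 38.0 and 39.3. Cd28, the main costimulatory receptor, had 26.3 and 20.3 (log2 ratio -0.38), with its other probe set at 5.77 and 6.90. Cd2, an adhesion receptor of T and NK cells, went from 5.09 to 20.4, at least 1.03-fold higher with the main floor, a bound that a lower floor raises. The remaining 8 of the 11 were under the floor in both pools. Icos and Ctla4, the inducible costimulator and the inhibitory receptor encoded beside Cd28 on chromosome 1, had 17.2 and 10.6, and 7.87 and 5.91. The other Icos probe set had 9.27 and 9.39, so the lower values of this cluster held for the brightest probe sets and not for the second ones of Cd28 and Icos. Cd5 and Cd6, neighbours on chromosome 19 for related scavenger receptors, went opposite ways, at 4.26 and 10.4, and 2.54 and 1.55. Cd7 had 2.30 and 9.61, Ly9 had 0.493 and 7.95, and Cd96 had 15.7 and 12.4.

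Among NK cell receptors, Klrd1 alone was measured. Klrd1 (CD94), which pairs with NKG2 chains and is also carried by activated CD8 T cells, went from 11.9 to 27.9, at least 1.41-fold higher. Ncr1 (NKp46), a defining receptor of NK and some innate lymphoid cells, was under the floor at 2.83 and 9.50. Cd160, found on NK cells and intraepithelial lymphocytes, had 15.7 and 15.0 with its brightest probe set, 1.18 and 6.72 with another and 1.09 and 0.709 with the third. Of the NK-defining genes, neither Ncr1 nor the probe set shared by Klrb1c was above the floor in either pool.

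Of 6 transcription factors Bcl11b alone was measured. Bcl11b, required for T cell commitment, had 42.6 and 40.1, a log2 ratio of -0.09. Foxp3, the factor of regulatory T cells, had 4.07 and 7.29. Tbx21 (T-bet) had 0.784 and 0.682 and Eomes 3.28 and 6.07 with its brighter probe set. Gata3, the factor of type 2 helper T cells and innate lymphoid cells, had 7.09 and 0.445, and Lef1 had 5.93 and 10.2. Lineage factors other than Bcl11b could not be compared at this intensity.

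Gimap4, a GTPase of the lymphocyte survival family, had the highest intensity of the set and its largest ratio among genes above the floor in both pools. Its brighter probe set went from 68.7 to 128, 1.86-fold higher, and its other probe set had 47.0 and 50.5, a log2 ratio of 0.10. The probe sets of Gimap4 thus differed by more than the yardstick of 0.28, and the brighter has a suffix that marks binding to several transcripts. Its relatives Gimap6, Gimap3 and Gimap1 had log2 ratios of 0.51, 0.35 and at least 0.08.

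**Figure D2:**
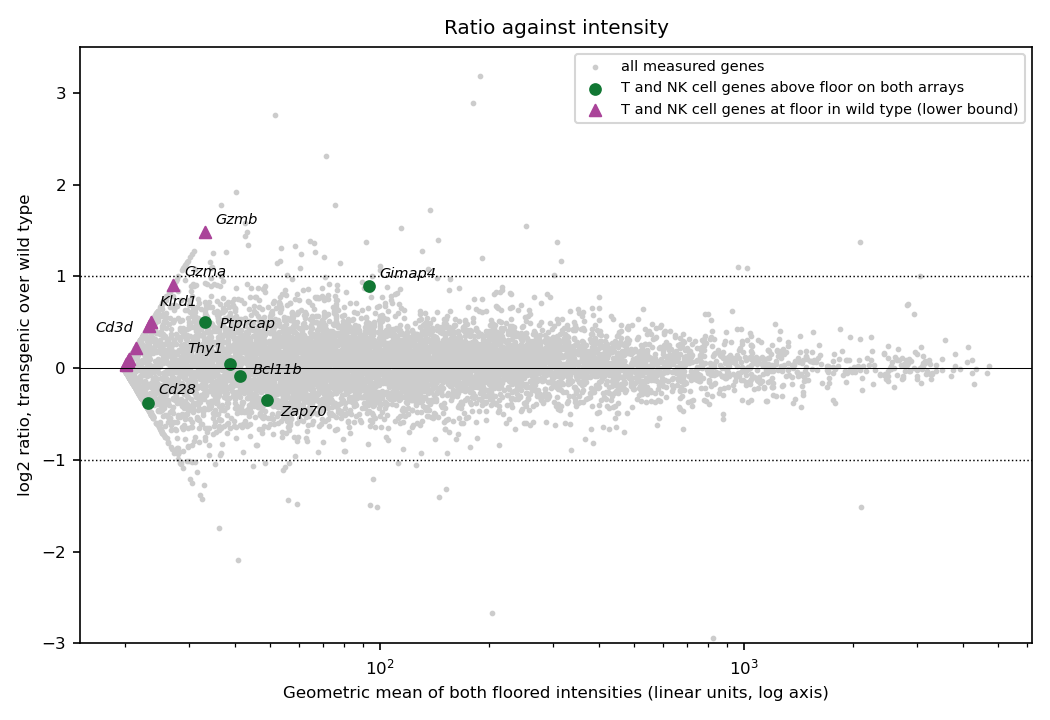
Log2 ratio of transgenic over wild type against the geometric mean of both floored intensities (log axis) for 8346 measured genes (grey) and the 15 measured T and NK cell genes, circles above the floor in both pools and triangles at the floor in wild type; dotted lines mark 2-fold and 22 genes fall outside the plotted range. The triangles lie on the left edge, where the floor fixes the ratio, and of the T and NK cell genes Gzmb alone lies above the upper dotted line.

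The other 22 genes were under the floor in both pools. Their wild-type intensities ran from 0.493 to 17.2 with a median of 3.93, and their transgenic intensities from 0.296 to 15.0 with a median of 7.42. Over all 37 genes and with no floor, 23 (62.2%) were higher and 14 lower in the transgenic pool, where 52.1% of all 12393 genes were higher. Of the 11 genes read by several probe sets, 8 had probe sets of opposite sign when no floor was used. For most of these genes the direction was thus not shared by all probe sets.

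The count of higher genes depended on the floor. With a floor at the 20th percentile (intensity 5.58), 33 of 37 were measured and 7 were at least 2-fold higher, against 1.87% of all genes, while 0 were lower, against 2.39%. The 7 were Gzmb (at least 9.89-fold), Gzma (5.62-fold), Cd2 (at least 3.66-fold), Cd3e (2.45-fold), Klrd1 (2.34-fold), Lat (2.09-fold) and Cd3g (2.08-fold). All except Gzmb and Cd2 exceeded that lower floor in both pools, so their ratios are not bounds. The median log2 ratio was 0.51 over the 33 and 0.02 over all genes.

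All 7 come from the 9 genes that crossed the main floor in the transgenic pool alone, where 25.9% of the 274 genes that crossed in this way were at least 2-fold higher at the lower floor (in the mirror case, 25.2% of 302 genes were lower). Among genes under the main floor in both pools, 3.33% were called higher and 6.37% lower, and of the 18 T and NK cell genes in that band 0 were called either way. The yardstick for probe sets of such low intensity was 0.54, wider than for brighter ones. At that lower floor the 7 crossing genes without a bound had log2 ratios of 2.49 (Gzma), 1.29 (Cd3e), 1.23 (Klrd1), 1.06 (Lat), 1.06 (Cd3g), 0.86 (Cd3d) and 0.54 (Prf1); their crossing fixed the direction, so these values are a description.

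At the 30th percentile 4 genes were higher, Gzmb, Gzma, Klrd1 and Cd3g, of 19 measured (1.11% of all genes higher and 0.967% lower), and the bounds of Lat, Cd3e and Cd2 were at least 1.94-fold, at least 1.91-fold and at least 1.87-fold, which leaves their calls undecided at that floor. At the 60th percentile 3 genes were measured and 0 reached 2-fold, against 0.485% higher and 0.452% lower among all genes. With no floor at all 13 of 37 were higher and 2 lower, against 6.02% and 7.51% of all genes, so calls both ways became common. No floor from the 20th to the 60th percentile gave a T or NK cell gene at least 2-fold lower.

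**Figure D3:**
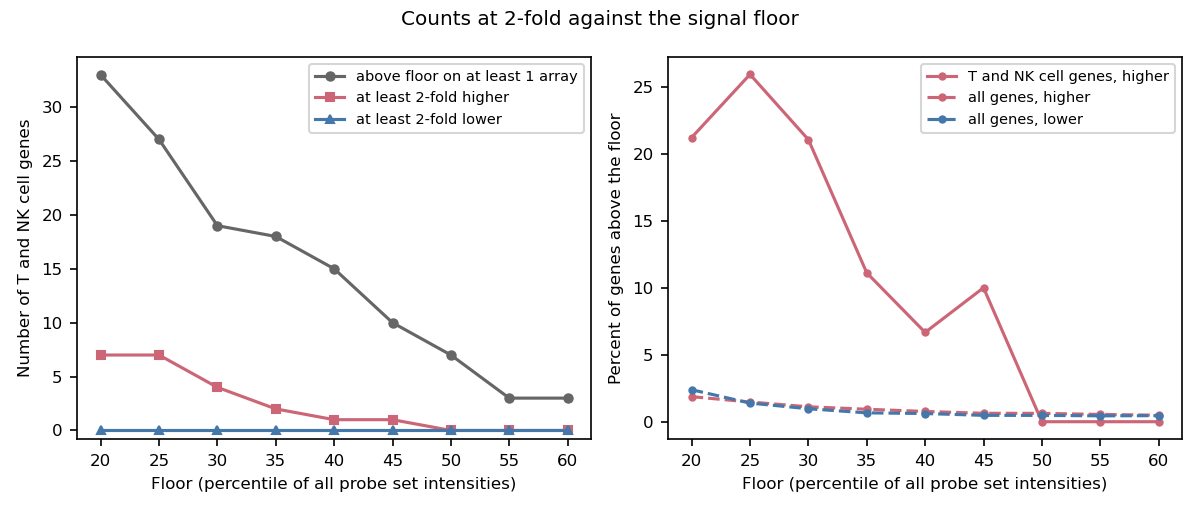
Left, number of T and NK cell genes above the floor in at least 1 pool and at least 2-fold higher or lower, against the percentile used as floor; right, percent of T and NK cell genes higher (solid) and of all genes higher or lower (dashed). The number of higher genes falls from 7 at the 20th percentile to 1 at the 40th and 0 at the 50th, and the number of lower genes is 0 throughout.

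Other genes of the same pathways were examined in lists. In T cell receptor signalling, 13 of 23 genes on the array were measured, 11 of them positive (56.0% of all measured genes were). Among the 11, Ptpn22 exceeded the floor in the transgenic pool alone, which fixes its direction. At the main floor 0 were at least 2-fold either way, with a median of 0.23. With the floor at the 20th percentile, 2 of 20 were at least 2-fold higher and 0 lower, against 1.87% and 2.39% of all genes. The tetraspanin gene Cd53 and the CD45 gene Ptprc, both of all leukocytes, had log2 ratios of 0.98 (103 to 202) and 0.80 (156 to 272). The transcription factor gene Nfatc1 had 0.40 and the kinase gene Fyn 0.33. With the main floor, the larger ratios in this list thus belonged to the pan-leukocyte genes. The 2 genes called higher at the lower floor were others, Rhoh (6.73 to 16.9) and Prkcq (0.785 to 12.9). Both were under the main floor in both pools, and Prkcq exceeded the lower floor in the transgenic pool alone, which fixes its direction.

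Among further NK and cytotoxic genes 6 of 32 were measured, of which Srgn alone reached 2-fold at the main floor, with a median of 0.37; with the floor at the 20th percentile, 4 of 17 were at least 2-fold higher and 1 lower. Tyrobp (DAP12), an adaptor of NK and myeloid receptors, had 0.57 and the Fc receptor gene Fcgr3 0.26, both genes that macrophages also express. Ctsw, a protease of cytotoxic cells, crossed the main floor from 9.99 to 20.4. The interferon gene Ifng was under the main floor at 4.97 and 0.67, and Ccl5 at 5.18 and 17.3.

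In the list of T cell differentiation and homing genes, 20 of 34 were measured, with a median of 0.10. Of these, 4 were at least 2-fold higher and 0 lower, against 0.767% and 0.611% of all measured genes. With the floor at the 20th percentile the counts were 4 and 0 of 29, against 1.87% and 2.39% of all genes. Icosl, the ligand of ICOS on antigen-presenting and epithelial cells, was 2.99-fold higher by its brighter probe set (24.6 to 73.6), while the other was under the floor at 8.31 and 7.56. Coro1a, an actin regulator of leukocytes, was 2.64-fold higher (89.1 to 235), with another probe set at 57.1 and 123. Itgae (CD103), the integrin that binds intraepithelial lymphocytes and some dendritic cells to E-cadherin, was 2.25-fold higher (19.9 to 44.7). Ltb, the lymphotoxin of lymphoid tissue, was 2.12-fold higher (21.3 to 45.1). Il7r had 31.5 and 29.8, and Zbtb7b, which sets the CD4 fate, -0.45.

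Of 13 innate lymphoid and type 2 lymphocyte markers on the array, 5 were measured. Il9, the gene that the transgene carries, went from 5.14 to 862, at least 43.6-fold higher. Of the others, Kit had 0.45, Rora -0.38, Il7r -0.08 and Il17rb, under the floor in the transgenic pool, -0.03. Il4, Il5 and Il13 were under the floor in both pools, at 8.14 and 5.36, 3.48 and 1.73, and 1.81 and 2.05.

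Markers of other cells differed beside the T and NK cell genes. Of 8 measured B cell markers 5 were at least 2-fold higher and 0 lower, all 8 were positive and the median was 1.14. The 5 were Cd79a, Cd22, Pou2af1, Ms4a1 and Ighm, whose brightest probe set had 62.6 and 570. Other Ighm probe sets above the floor were also higher in the transgenic pool, but by very different amounts. Among them were 217 to 255, 121 to 183, 78.3 to 146 and 32.3 to 525. Cd72 and Cr2 exceeded the floor in the transgenic pool alone, which fixes their direction. The summed intensity of the 11 B cell markers on the array was 291 and 1062, and the brightest Ighm probe set made up most of the difference. Pax5, Blk and Fcer2a were under the floor. Lymphoid follicle and lymph node markers had 5 of 8 measured, all positive, with a median of 0.85 and summed intensities of 244 and 432. Of these, Cr2 and Madcam1 exceeded the floor in the transgenic pool alone, which fixes their direction. Cr2 is also counted among the B cell markers, and Ltb also in the homing list. Cxcl13, the chemokine that draws B cells into follicles, had 122 and 224, and Glycam1, a ligand of L-selectin, 40.9 and 73.7. The part of lymphoid tissue caught in the colon pieces in the T cell values was not tested. Macrophage and dendritic cell markers had 1 of 12 at least 2-fold higher, 0 lower, a median of 0.27 and sums of 1848 and 2148. The higher gene was Itgax (14.2 to 42.1), which exceeded the floor in the transgenic pool alone, which fixes its direction. Plasma cell markers had 0 of 5 past 2-fold and a median of 0.10.

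Colon epithelium markers bear out the tissue label: all 16 on the array were measured and 0 reached 2-fold, with a median of 0.05. Pancreatic acinar genes, which a colon should lack, were lower by 2-fold or more in 12 of 12, with summed intensities of 29747 in the wild-type pool and 1677 in the other. Most of the transgenic sum came from Cela1 (3554 to 1246), and Clps and Pnliprp2 still had 296 and 80.6 there. The part of the acinar genes in the T and NK cell values was not tested.

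**Figure D4:**
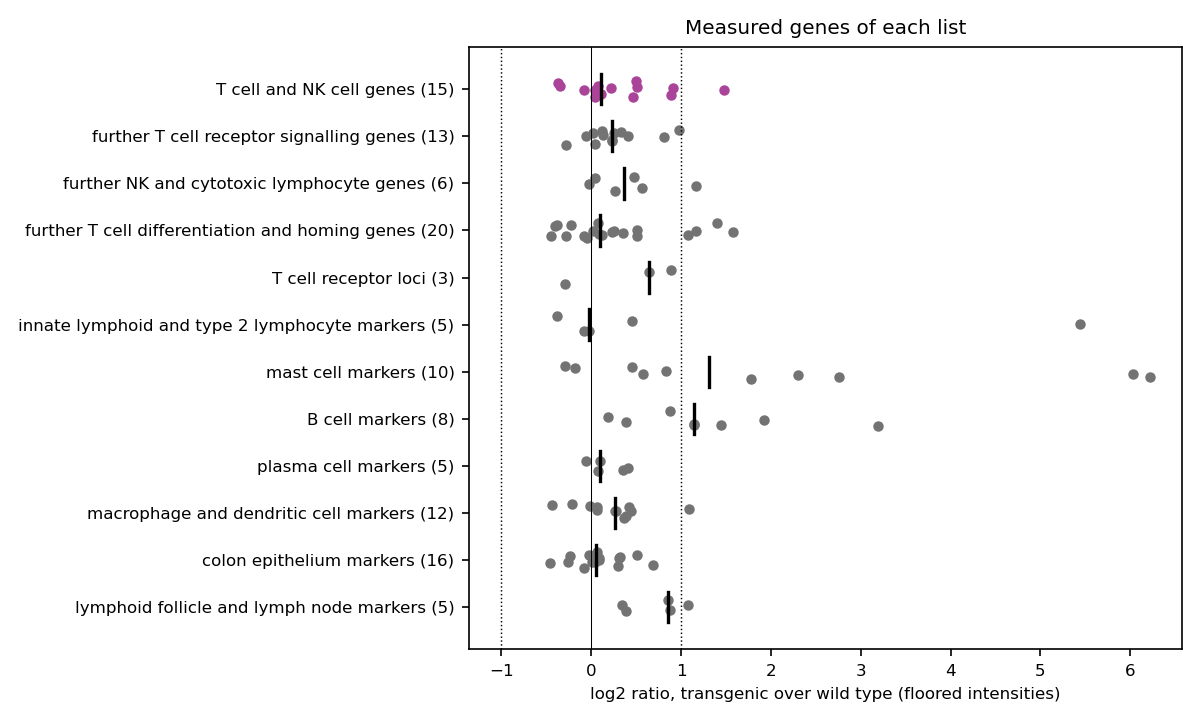
Log2 ratio of transgenic over wild type, from floored intensities, of each measured gene in 12 lists (number measured in parentheses), with the list median as a bar and dotted lines at 2-fold; the point at 5.45 among innate lymphoid markers is Il9. T and NK cell genes have a median of 0.10, B cell markers 1.14 and mast cell markers 1.31.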

How the data were processed

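Distal colon RNA of 2 genotypes was measured on 1 array each, every array carrying a pool of 4 mice per the series design. The deposited table holds linear intensities, which the authors computed with MAS5 per the submitters' processing notes, with no version stated there. Leaving out the top and bottom 2% of probe sets gave both arrays a mean of 100.04. Probe sets above the floor made up 60.2% (wild type) and 59.8% (transgenic) of each array. MAS5 subtracts background and mismatch signal, so low values have unstable ratios.

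Of 22626 non-control probe sets, 20380 had exactly 1 symbol in the platform annotation; all 37 T and NK cell genes with a probe set matched the RefSeq gene table of GRCm38.p6, used for names and gene order. The brightest probe set by mean intensity stood for a gene. No p-value was computed, and the number of arrays limits the precision. Every T and NK cell gene above the main floor in at least 1 pool is named, as are lower ones that define a cell type. Each further T cell, NK cell and innate lymphoid list has at least the 4 measured genes with the largest ratios named, or all if fewer. Lists of other cell types are given mainly by counts, medians and sums, with only some genes named. Other genes named under the floor were chosen after their values were seen. The genes and lists were chosen with earlier results of these data known. The alternatives were other floors, scalings, probe set rules and a 1.5-fold threshold. The ratio step was tested on simulated data. Python 3.11.15, pandas 2.3.3 and statsmodels 0.14.6 were used.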

Additional observations from a re-analysis of the deposited data

How the results depend on the processing

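The signal floor decided most values. With floors at the 20th, 30th, 50th and 60th percentiles, 33, 19, 7 and 3 T and NK cell genes were measured, against 15 with the main floor, and 7, 4, 0 and 0 were at least 2-fold higher, against 1. With no floor and a pseudocount of 0.284, all 37 entered, 13 were higher (6.02% of all genes) and 2 lower (7.51% of all genes). A 1.5-fold threshold gave 3 higher. The median log2 ratio, 0.10 with the main floor, was 0.51 and 0.54 at the 20th and 30th percentiles and 0.76 with no floor. Median scaling, quantile normalization, loess (span 0.3), the mean of all probe sets and leaving out probe sets ending in _s_at, _x_at or _a_at each left 1 gene higher, 0 lower and medians between 0.10 and 0.14. Leaving out those endings measured 13 genes, since Gzma and Bcl11b have no other probe set. Of 148 values of the 15 measured genes under these alternatives, 106 moved by less than the yardstick SD and 42 by more. Both counts include values of 0 set by a raised floor that neither pool exceeded. Such genes were no longer measured, so these values do not show stability. Among genes still measured, Gimap4 was the one that moved with the probe set rule. It went to 0.50 for the mean of its probe sets and to 0.10 without those endings. Gzmb ranged from at least 0.0037 at the 60th percentile to 4.47 with no floor. No paired analysis was possible because each genotype has 1 array. Low signal limits nearly every T and NK cell value, also among the 6 genes above the main floor in both pools. At the 50th percentile Ptprcap moved from 0.51 to at least 0.21, its wild-type value being under that floor. Cd28, at -0.38 with the main floor, was under the 50th percentile in both pools and was no longer measured. At the 60th percentile Zap70 moved from -0.34 to -0.0069, a bound because its transgenic value was under that floor.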
